A study of Mus musculus with 12 samples.

Results

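Immediate early genes were examined in the brains of mice given krill oil, with or without chronic unpredictable mild stress (CUMS). The 10 genes were Fos, Fosb, Junb, Egr1, Egr2, Egr4, Arc, Npas4, Nr4a1 and Dusp1. They were taken by symbol from the gene table, each symbol had 1 row, and all 10 of these rows passed the filter on low values, against 21393 of all 55385 genes. Poly(A) RNA of 12 brains was sequenced, with 3 mice drawn at random from each of 4 groups, all wild-type C57/BL6J males that were 8 weeks old when bought. C_W mice were given water, C_O mice received intragastric krill oil, 200 mg/kg/day over 5 weeks, MS_W mice were given water and CUMS for 4 weeks, and MS_O mice were given both krill oil and CUMS. Per the study, the water was of the same volume as the oil. Its mice also went through sucrose preference, Y-maze and forced swimming tests, and brains were taken after isoflurane anesthesia and perfusion with saline. The time between the last stressor and the collection of the brains was not given in the sources used here. The values are FPKM, fragments scaled by transcript length (per kilobase) and by library depth, so levels of different genes can be set side by side.

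Immediate early genes are switched on within minutes of a signal reaching a cell and need no new protein synthesis for it. In neurons, calcium entry through synaptic and voltage-gated channels activates kinases, which act on CREB bound at cAMP response elements (CRE) and on serum response factor bound at CArG boxes. Their transcripts and many of their proteins are short-lived, and they are widely read as markers of recent neuronal activity, with high resting levels of some members in the cerebral cortex and hippocampus. Fos, Fosb and Junb encode subunits of the AP-1 transcription factor. Egr1, Egr2 and Egr4 encode zinc finger transcription factors, Npas4 a neuron-specific bHLH-PAS factor that depends on calcium, and Nr4a1 an orphan nuclear receptor. Arc encodes a synaptic protein that takes part in AMPA receptor endocytosis, and Dusp1 a phosphatase that inactivates MAP kinases.

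Promoter windows from RefSeq (GRCm38.p6) were found for 8 of the 10 genes, without Arc and Egr1, and each holds 250 bases before the annotated start and 50 bases from it on. All 8 genes had the CRE core TGACG, on either strand, in a window, as did 23.0% of the 27025 genes with windows. The full CRE TGACGTCA, which contains the core on both strands, was found only for Dusp1 among these 8, starting 143 bases before its start, and in 2.03% of all genes. A CArG box was found only for Egr2 among these 8, as CCATATATGG starting 72 bases before the start in the window shown, and in 1.81% of all genes. The EGR motif GCGGGGGCG was found for Fosb and Nr4a1 and in 3.31% of all genes, and the AP-1 motif TGACTCA for none of the 8 and in 5.95% of all genes. TATAAA was found for Fos and Junb and in 15.7% of all genes. Motifs were searched on both strands, and a match describes letters only. The windows of 5 genes are shown because their levels followed different courses over the libraries, as described later: Egr2 and Egr4 had the lowest values relative to other libraries, Npas4 was low in the same libraries, and Fos and Dusp1 were not. Capitals mark the CRE core and the CArG box.
The Fos window is chr12:85473640-85473939 on the plus strand.
Fos: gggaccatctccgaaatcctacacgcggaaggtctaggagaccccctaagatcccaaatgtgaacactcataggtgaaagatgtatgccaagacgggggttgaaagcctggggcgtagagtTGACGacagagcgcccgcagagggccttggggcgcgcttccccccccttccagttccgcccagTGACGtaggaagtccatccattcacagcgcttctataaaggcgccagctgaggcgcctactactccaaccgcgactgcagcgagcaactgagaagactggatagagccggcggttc
The Egr2 window shown is 1 of several for this gene, chr10:67537619-67537918 on the plus strand.
Egr2: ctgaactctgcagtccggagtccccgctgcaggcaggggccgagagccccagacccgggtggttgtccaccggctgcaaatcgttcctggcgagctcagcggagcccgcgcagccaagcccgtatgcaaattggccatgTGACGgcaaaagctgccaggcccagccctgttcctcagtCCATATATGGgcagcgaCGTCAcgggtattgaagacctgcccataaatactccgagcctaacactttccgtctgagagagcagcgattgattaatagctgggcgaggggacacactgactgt
The Egr4 window is chr6:85513540-85513839 on the minus strand.
Egr4: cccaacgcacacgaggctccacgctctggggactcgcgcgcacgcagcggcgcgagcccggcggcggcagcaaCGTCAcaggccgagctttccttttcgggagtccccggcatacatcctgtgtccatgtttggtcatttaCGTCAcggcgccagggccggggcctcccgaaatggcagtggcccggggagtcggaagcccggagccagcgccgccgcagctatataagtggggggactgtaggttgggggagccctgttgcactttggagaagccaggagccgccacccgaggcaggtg
The Npas4 window is chr19:4989922-4990221 on the minus strand.
Npas4: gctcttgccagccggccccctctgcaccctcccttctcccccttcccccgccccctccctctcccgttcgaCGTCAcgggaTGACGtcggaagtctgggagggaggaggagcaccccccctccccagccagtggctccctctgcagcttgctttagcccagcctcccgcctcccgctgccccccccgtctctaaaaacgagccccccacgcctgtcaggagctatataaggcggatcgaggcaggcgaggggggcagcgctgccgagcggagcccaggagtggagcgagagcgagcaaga
The Dusp1 window is chr17:26508423-26508722 on the minus strand.
Dusp1: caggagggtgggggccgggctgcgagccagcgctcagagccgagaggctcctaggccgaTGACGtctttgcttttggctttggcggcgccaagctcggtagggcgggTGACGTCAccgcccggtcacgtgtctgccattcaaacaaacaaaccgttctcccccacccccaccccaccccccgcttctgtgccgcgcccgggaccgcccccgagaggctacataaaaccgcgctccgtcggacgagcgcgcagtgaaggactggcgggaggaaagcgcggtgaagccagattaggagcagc
In each of the 5 windows every marked CRE core lies upstream of the start.

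Total estimated counts lay between 50912906 and 75678721 per library. C_O72, a krill oil mouse without stress, and MS_W95, a stressed mouse given water, stood apart from the other 10 libraries: across genes they correlated with each other at r = 0.970 and with the others at no more than 0.937, while the other 10 correlated with one another at 0.959 or more. The labels and the study call the tissue brain and whole brain. Cerebellar markers were high in C_O72 and MS_W95 only, with Gabra6 of granule cells at 23.9 and 91.3 FPKM and Pcp2 of Purkinje cells at 31.3 and 114 FPKM there, against no more than 0.129 and 0.212 FPKM in the other 10. The summed level of 9 hindbrain and spinal cord markers was 78.9 and 49.1 FPKM in these libraries and no more than 0.444 FPKM elsewhere. The comparisons below are therefore given over all 12 libraries and again without these 2. In whole tissue, fewer cells of a type and less RNA per cell cannot be told apart.

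**Figure D1:**
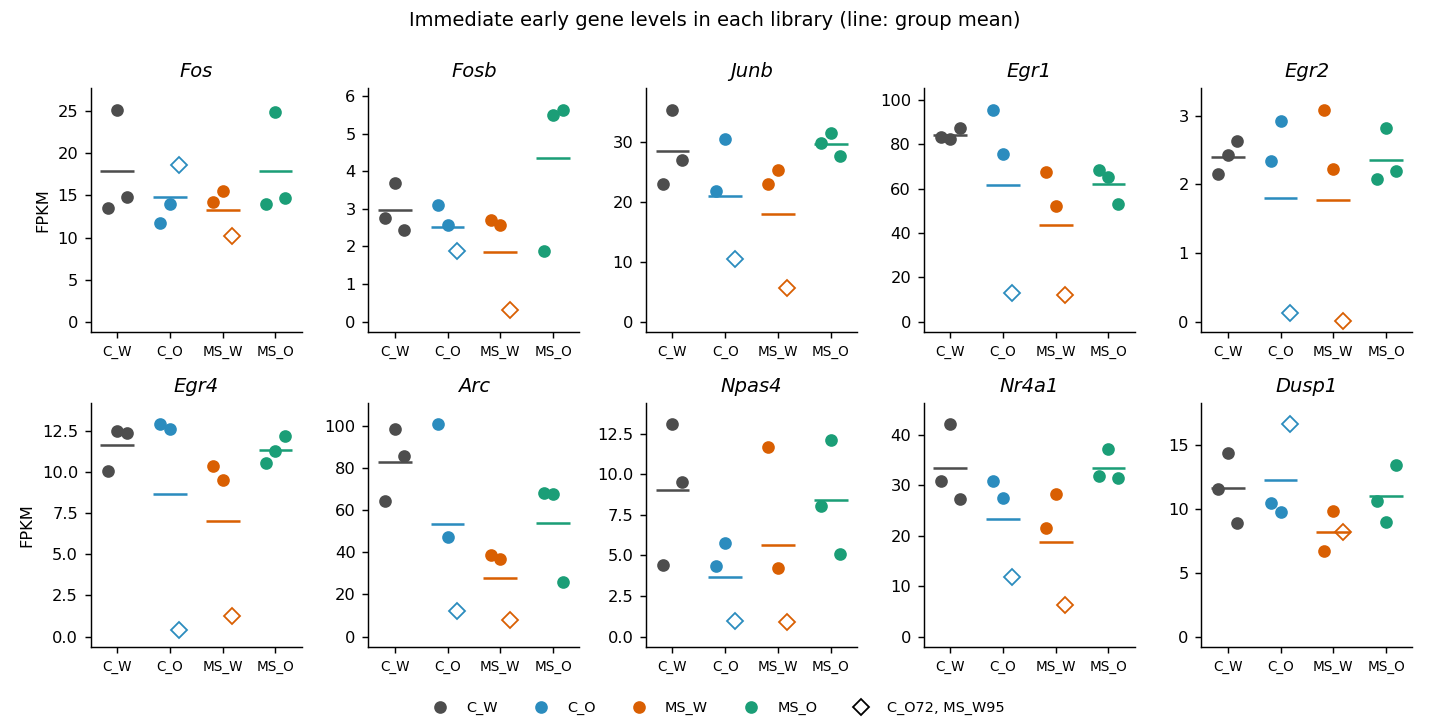
FPKM of each immediate early gene in each of the 12 libraries, by group, with a line at the mean of the 3 mice and open diamonds for C_O72 and MS_W95. In all panels but those of Fos and Dusp1 both diamonds lie below the other 10 libraries.

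Averaged over the 12 libraries, the highest level was that of Egr1 (62.9 ± 26.9 FPKM, SD, n = 12) and the lowest that of Egr2 (2.09 ± 0.995 FPKM). Between them the order was Arc (54.5 ± 31.4 FPKM), Nr4a1 (27.2 ± 9.999 FPKM), Junb (24.3 ± 8.63 FPKM), Fos (15.9 ± 4.70 FPKM), Dusp1 (10.8 ± 2.81 FPKM), Egr4 (9.66 ± 4.28 FPKM), Npas4 (6.69 ± 4.17 FPKM) and Fosb (2.92 ± 1.48 FPKM). Of the 9 pairs of neighbours in this order, only Fos and Dusp1 differed by more than the SD of either gene, and Fos exceeded Dusp1 in 12 of 12 libraries. Egr1 exceeded Arc in 9 of 12 libraries.

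Among the AP-1 subunits, Fos (chr12:85473890-85477273, plus strand of mm10) had 13.5, 25.2 and 14.8 FPKM in the C_W libraries 1, 64 and 70, 11.7, 13.996 and 18.6 in C_O 15, 30 and 72, 14.2, 15.5 and 10.2 in MS_W 31, 75 and 95, and 13.98, 24.9 and 14.7 in MS_O 13, 46 and 78. C_W64 and MS_O46 were the highest libraries, and all 4 groups overlapped. Fosb (chr7:19302696-19310051, minus strand), whose product includes the long-lived splice form that accumulates with repeated stimulation, had 2.76, 3.70 and 2.43 FPKM in C_W, 3.09, 2.57 and 1.88 in C_O, 2.70, 2.58 and 0.306 in MS_W, and 1.89, 5.48 and 5.64 in MS_O, in the same order of libraries. The highest libraries were MS_O46 and MS_O78, while MS_O13 was the lowest of the 10 libraries left without C_O72 and MS_W95. The table gives 1 value per gene, so splice forms of Fosb were not separated. Junb (chr8:84974484-84978718, minus strand) had 23.0, 35.5 and 27.1 FPKM in C_W, 21.9, 30.5 and 10.5 in C_O, 23.0, 25.3 and 5.56 in MS_W, and 29.9, 31.6 and 27.7 in MS_O. All 3 MS_O libraries lay above all 3 MS_W libraries, and the C_W libraries overlapped both.

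Of the EGR factors, Egr1 (chromosome 18, plus strand) had 83.3, 82.3 and 87.2 FPKM in C_W, 95.6, 75.7 and 13.1 in C_O, 67.2, 52.2 and 11.9 in MS_W, and 68.4, 65.1 and 53.1 in MS_O. The C_W libraries lay close together and above every library of the 2 CUMS groups. Egr2 (chr10:67535475-67542188, plus strand), which is also the factor of myelinating Schwann cells, had 2.16, 2.43 and 2.63 FPKM in C_W, 2.35, 2.92 and 0.128 in C_O, 3.09, 2.22 and 0.0133 in MS_W, and 2.07, 2.82 and 2.20 in MS_O. Its estimated counts were 25 in C_O72 and 4 in MS_W95 and between 439 and 757 in the other 10 libraries. Egr4 (chr6:85511121-85513589, minus strand) had 10.04, 12.5 and 12.3 FPKM in C_W, 12.9, 12.6 and 0.419 in C_O, 10.4, 9.52 and 1.25 in MS_W, and 10.5, 11.3 and 12.2 in MS_O. Egr4 varied least over the 10 libraries without C_O72 and MS_W95, with a coefficient of variation of 10.7%.

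Arc (chr15:74669083-74672570, minus strand) had 64.5, 98.4 and 85.8 FPKM in C_W, 101 (C_O15), 47.5 and 12.3 in C_O, 38.8, 37.0 and 7.90 in MS_W, and 68.0, 67.7 and 25.9 in MS_O. All C_W libraries lay above all MS_W libraries, and both groups given krill oil overlapped both. Npas4 (chr19:4984355-4990316, minus strand) had 4.44, 13.1 and 9.55 FPKM in C_W, 4.33, 5.77 and 0.993 in C_O, 11.7, 4.25 and 0.924 in MS_W, and 8.07, 12.1 and 5.07 in MS_O. It was the most variable of the 10 genes over the 10 libraries without C_O72 and MS_W95, with a coefficient of variation of 45.1%, and all 4 groups overlapped. Nr4a1 (chr15:101254269-101274795, plus strand) had 30.8, 42.0 and 27.2 FPKM in C_W, 30.8, 27.4 and 11.7 in C_O, 21.5, 28.3 and 6.18 in MS_W, and 31.7, 37.2 and 31.4 in MS_O. All MS_O libraries lay above all MS_W and all C_O libraries. Dusp1 (chr17:26505590-26562128, minus strand) had 11.6, 14.3 and 8.91 FPKM in C_W, 10.4, 9.74 and 16.6 in C_O, 6.68, 9.82 and 8.16 in MS_W, and 10.7, 9.01 and 13.5 in MS_O. Here C_O72 was the highest library of the 12. The Dusp1 row spans 56539 bases and 6 transcripts, some with exons far upstream of the promoter shown, so its value may hold reads from outside the usual gene.

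Over the 10 libraries without C_O72 and MS_W95, C_W64 was the highest for 5 of the 10 genes, namely Fos, Junb, Npas4, Nr4a1 and Dusp1, and MS_O46 came next for the first 4 of these. C_O15 was the highest for Egr1, Egr4 and Arc. MS_W75 was the lowest for Egr1, Egr4 and Npas4, and MS_W31 for Nr4a1 and Dusp1. Mice of the same group thus differed from each other, with Npas4 at 4.44 FPKM in C_W1 and 13.1 FPKM in C_W64.

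Both libraries that stood apart held less of 8 of the 10 immediate early genes than any of the other 10 libraries, all but Fos and Dusp1, against 11.7% of all genes tested. Relative to the median of the other 10, Egr2 was 18.6-fold lower in C_O72 and 179-fold lower in MS_W95, the latter resting on 4 estimated counts. Egr4 was 28.0-fold lower in C_O72 and 9.40-fold lower in MS_W95. Npas4 was 6.97-fold and 7.49-fold lower, Egr1 5.51-fold and 6.05-fold lower, and Arc 5.38-fold and 8.36-fold lower in C_O72 and MS_W95, respectively. Nr4a1 was lower by 2.63-fold and 4.98-fold, and Junb by 2.62-fold and 4.92-fold. Fosb was 1.46-fold lower in C_O72, just under the lowest of the other 10 (1.88 against 1.89 FPKM), and 8.92-fold lower in MS_W95. Fos was 1.29 times the median in C_O72 and 0.707 times it in MS_W95, and Dusp1 was 1.64 and 0.806 times it.

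**Figure D2:**
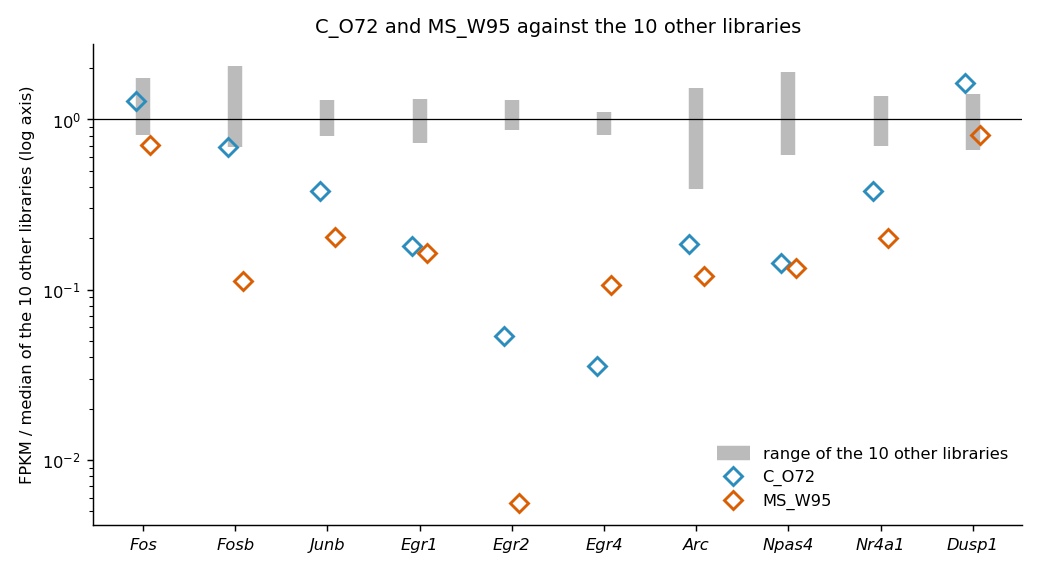
FPKM of each gene in C_O72 and MS_W95 divided by the median of the other 10 libraries, on a log axis, with grey bars for the range of those 10 around their own median. Egr2 in MS_W95 lies lowest, 179-fold below the median, and Fos and Dusp1 in C_O72 lie above it at 1.29 and 1.64 times.

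Most cortical markers and a share of the other activity-regulated transcripts were also low in the same 2 libraries, where 11.7% of all genes tested were below the other 10 in both. Of 28 further immediate early genes 7 were below all other libraries in both, Egr3, Fosl2, Ier5, Klf10, Per1, Gadd45b and Dusp6, and Egr3, a further EGR factor, was at 0.763 and 0.370 FPKM against 13.6 or more. Others were highest of all 12 in C_O72, such as Zfp36, an mRNA decay factor, at 6.06 FPKM and Ccn1, a matrix protein, at 11.5 FPKM, where the medians of the 10 were 1.17 and 2.97 FPKM. Of 11 cortical excitatory neuron markers 8 were below all other libraries in both, with Tbr1, a factor of deep cortical layers, at 0.143 and 0.196 FPKM against 8.82 or more. The rest were not: Lamp5 was at 107 FPKM in C_O72, where the median of the 10 was 68.3 FPKM. Neurod2 was at 29.6 FPKM in MS_W95, the highest of all 12, and Cux2 in C_O72 lay within the range of the 10. Of 19 upstream genes, signal proteins and factors that switch immediate early genes on, 11 were lower in both, among them Mrtfb, a coactivator of serum response factor (5.27 and 6.30 FPKM against 23.3 or more) and Srf itself (5.43 and 5.15 FPKM against 7.95 or more). The rest were not: Rps6ka5 at 3.88 FPKM and Camk4 at 15.2 FPKM were highest of all 12 in MS_W95. Mapk3 and Elk4 lay within the range of the 10 in both. Summed FPKM of the cortical markers were 170 in C_O72 and 146 in MS_W95, and the part of tissue composition in the low values of the immediate early genes was not tested. Such sums are weighted to the most abundant markers. Nrgn had the highest median of the 11 in the other 10 libraries, 801 FPKM, and Lamp5 made up 107 of the 170 FPKM in C_O72.

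CUMS without krill oil was examined by comparing C_W with MS_W. All 10 genes had lower mean levels in MS_W, with a median log2 fold change (log2FC, on the log2(FPKM + 1) scale) of -0.87 against 0.06 over all genes tested. Arc was called by the criteria of the study, an unadjusted p under 0.05 together with an absolute log2 ratio of the group means above 1: it was 82.9 ± 17.1 FPKM in C_W and 27.9 ± 17.3 FPKM in MS_W (SD, n = 3 each; log2FC -1.80 ± 0.76 SE, limma, adjusted p = 0.456). Thus 1 of 10 genes was called, where 4.59% of all genes tested were. Nearest to this was Nr4a1 (log2FC -1.01 ± 0.48 SE, limma, adjusted p = 0.490), followed by Dusp1 (-0.44 ± 0.23, adjusted p = 0.530) and Egr1 (-1.24 ± 0.72, adjusted p = 0.557). For Arc and Egr1, 2 of the 10 genes, every MS_W library lay below every C_W library, where 24.6% of all genes tested did not overlap. The same 2 genes did not overlap without C_O72 and MS_W95, against 38.8% of all. No gene of the 10 passed an adjusted p of 0.05, nor did any with edgeR or DESeq2 on the estimated counts. Of all genes 0.00467% did by limma, and of the 21393 tested 1 did by edgeR and 396 by DESeq2.

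Much of the distance between C_W and MS_W lay in MS_W95. Without C_O72 and MS_W95 the median log2FC of the 10 genes was -0.21, against 0.04 over all genes tested. Arc was still called (log2FC -1.09 ± 0.45 SE, limma, adjusted p = 0.298), as were 5.81% of all genes. Egr1 had a smaller difference with a smaller error (log2FC -0.50 ± 0.15 SE, limma, adjusted p = 0.174), under the 2-fold criterion. Junb (-0.21 ± 0.19), Egr4 (-0.20 ± 0.11), Fos (-0.20 ± 0.30), Npas4 (-0.19 ± 0.50) and Fosb (-0.11 ± 0.33) lay within 2 SE of no difference. Dusp1 (-0.44 ± 0.22) and Nr4a1 (-0.40 ± 0.19) had no unadjusted p under 0.05, and Egr2 changed sign (0.09 ± 0.15). Arc lost its call without MS_W95 alone (log2FC -1.09, adjusted p = 0.736) and without C_W1, C_W64 or C_W70 (log2FC -1.97, -1.66 and -1.76). Without MS_W31 Npas4 was called as well (log2FC -1.55, limma, adjusted p = 0.465), and without MS_W75 Nr4a1 was (log2FC -1.41, adjusted p = 0.456). Of all 21393 genes tested, 1180 were called without MS_W31 and 1146 without MS_W75.

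**Figure D3:**
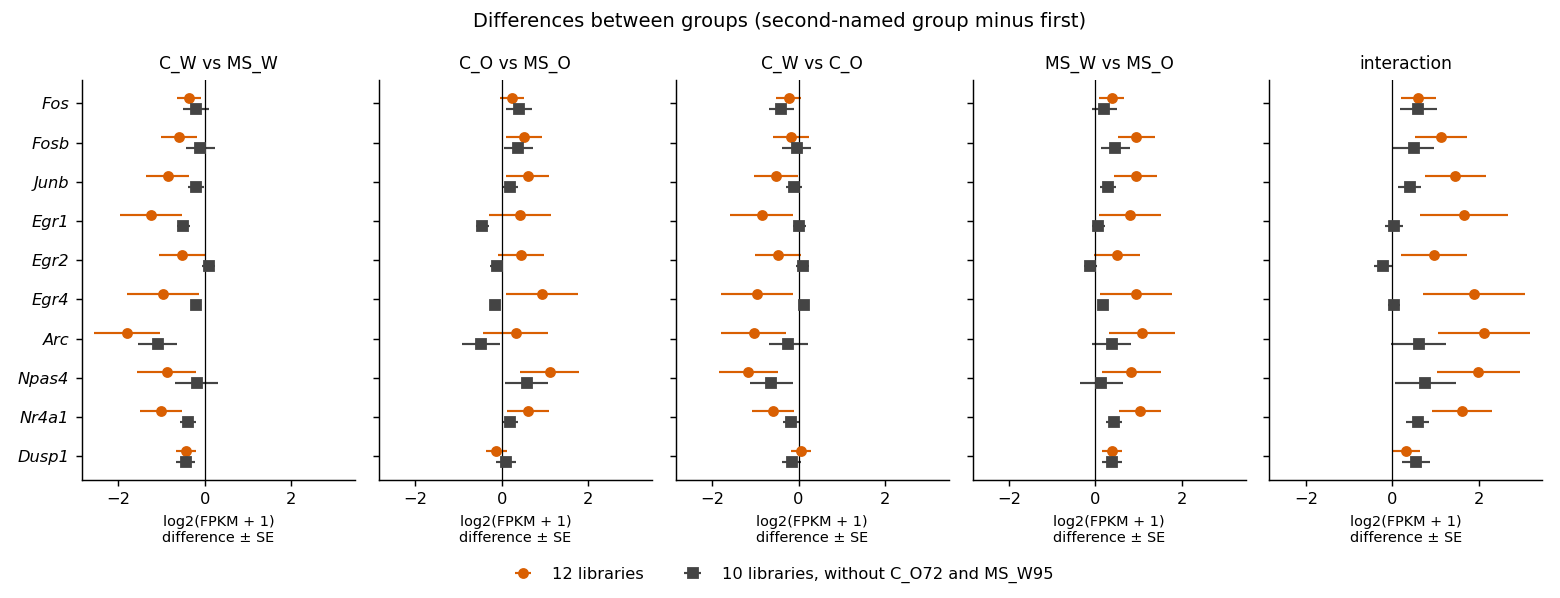
Difference in mean log2(FPKM + 1) with its SE for each gene in 4 pairwise comparisons and the interaction, from limma fits of all 12 libraries (orange circles) and of the 10 without C_O72 and MS_W95 (grey squares), where positive values are higher in the group named last. In the 12 libraries all 10 genes lie below 0 in C_W vs MS_W and above 0 in MS_W vs MS_O, and most squares lie nearer to 0 than the circles.

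The effect of krill oil under stress was examined by comparing MS_W with MS_O. All 10 genes had higher mean levels in MS_O, with a median log2FC of 0.88 against -0.02 over all genes tested. Fosb was called, at 1.86 ± 1.35 FPKM in MS_W and 4.34 ± 2.12 FPKM in MS_O (SD, n = 3 each; log2FC 0.95 ± 0.42 SE, limma, adjusted p = 0.815). This was 1 of 10 genes, against 2.81% of all genes tested. Junb, Egr4 and Nr4a1 did not overlap between the groups, all higher in MS_O, which is 3 of 10 genes against 12.3% of all. Their log2FC were 0.93 ± 0.50 for Junb, 0.93 ± 0.83 for Egr4 and 1.03 ± 0.48 for Nr4a1 (SE), with adjusted p of 0.819 or more in limma. Arc was 53.9 ± 24.2 FPKM in MS_O (log2FC 1.08 ± 0.76 SE, limma, adjusted p = 0.837), and the other 5 genes had log2FC between 0.37 and 0.83. None of the 10 passed an adjusted p of 0.05 by limma, edgeR or DESeq2. Of all genes 0.00467% did by limma, and of the 21393 tested 1 did by edgeR and 81 by DESeq2.

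Without C_O72 and MS_W95 no immediate early gene was called between MS_W and MS_O, where 3.36% of all genes were, and none had an unadjusted limma p under 0.05. Junb, Egr4 and Nr4a1 again did not overlap, where 22.3% of all genes did not. The median log2FC of the 10 genes was then 0.25, and that of Fosb 0.46 ± 0.33 SE (adjusted p = 0.769 by limma). The largest of the differences relative to its error was that of Nr4a1 (0.42 ± 0.19 SE, limma, adjusted p = 0.587). Egr2 turned to -0.12 ± 0.15. Fosb lost its call without any 1 of C_W1, C_W64, C_W70, C_O15, C_O30, C_O72, MS_W95, MS_O46 or MS_O78, with a log2FC between 0.46 and 0.95. Without MS_W31 Npas4 joined Fosb (log2FC 1.497, limma, adjusted p = 0.691), and without MS_W75 Nr4a1 and Junb did (log2FC 1.44 and 1.29, adjusted p = 0.711 for both). Of all 21393 genes tested, 835 were called without MS_W31 and 758 without MS_W75.

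CUMS under krill oil, C_O against MS_O, gave no call among the 10 genes, against 3.57% of all genes tested, and none had an unadjusted limma p under 0.05. The median log2FC was 0.48, with 9 of 10 genes above 0. The largest difference was that of Npas4, at 3.70 ± 2.45 FPKM in C_O and 8.42 ± 3.54 FPKM in MS_O (SD, n = 3 each; log2FC 1.11 ± 0.68 SE, limma, adjusted p = 0.659). Only Nr4a1 did not overlap between the groups, higher in MS_O, 1 of 10 genes against 12.2% of all. Without C_O72 and MS_W95 no gene of the 10 was called (4.28% of all), Nr4a1 stayed above and Egr1 and Egr4 lay below in MS_O without overlap (26.8% of all genes), the median log2FC was 0.15 and Egr1 turned from 0.42 ± 0.72 to -0.45 ± 0.15 SE (limma, adjusted p = 0.335). Fosb was called without MS_O13 (log2FC 0.92 ± 0.40 SE, limma, adjusted p = 0.356), where 1251 of the 21393 genes tested were. By an adjusted p of 0.05 no gene of the 10 was called with limma, edgeR or DESeq2. Of all genes 0.00467% were by limma, and of the 21393 tested 1 was by edgeR and 169 by DESeq2.

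Krill oil without stress, C_W against C_O, gave no call among the 10 genes either, against 1.76% of all genes tested, with no unadjusted limma p under 0.05. The median log2FC was -0.55, with 9 of 10 genes below 0, and the largest difference was again that of Npas4 (log2FC -1.16 ± 0.68 SE, limma, adjusted p = 0.908). The groups overlapped for all 10 genes, while 9.42% of all genes did not overlap. Without C_O72 and MS_W95 no gene of the 10 was called (1.64% of all), only Egr4 did not overlap, higher in C_O (19.3% of all genes), the median was -0.14, Npas4 was at -0.63 ± 0.50 and Egr4 turned from -0.96 ± 0.83 to 0.13 ± 0.11 SE. Arc was called without C_O15 (log2FC -1.70 ± 0.74 SE, limma, adjusted p = 0.601), where 888 of the 21393 genes tested were. No gene of the 10 passed an adjusted p of 0.05 with limma, edgeR or DESeq2, and of all genes 0% did by limma, where 760 had an unadjusted p under 0.05. Of the 21393 tested 0 did by edgeR and 54 by DESeq2.

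Over both diets, CUMS gave no call among the 10 genes (2.87% of all genes, and 0.00935% by an adjusted p), and the median log2FC was -0.10. This median ranged from -0.325 without C_O72 to 0.150 without MS_W95, and it was -0.06 without both. Arc had the lowest value (log2FC -0.74 ± 0.53 SE, limma, adjusted p = 0.598), and it was called without C_O72 (log2FC -1.14 ± 0.45 SE, adjusted p = 0.220). Of all 21393 genes tested, 887 were called without C_O72. Without C_O72 and MS_W95, Egr1 had a log2FC of -0.48 ± 0.11 SE, and its limma adjusted p of 0.0778 was the smallest of any of the 10 genes in any comparison or setting. Arc (log2FC -0.78 ± 0.32 SE, adjusted p = 0.199) and Egr4 (-0.18 ± 0.08, adjusted p = 0.208) also had an unadjusted p under 0.05 there, each without a call, Arc at a log2 ratio of -0.80, where 4.83% of all genes were called. Over both stress states, krill oil gave no call (0.921% of all genes, and 0.00467% by an adjusted p) and no unadjusted limma p under 0.05, with a median log2FC of 0.05 and the highest value for Fosb (0.39 ± 0.30 SE). This median also changed sign with 1 library, from -0.205 without MS_W95 to 0.409 without C_O72, and Fosb ranged from 0.141 without MS_W95 to 0.584 without MS_O13. Without both C_O72 and MS_W95 the median was 0.08, Fosb was at 0.21 ± 0.24 SE and no gene of the 10 was called (1.32% of all).

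The interaction asked whether the difference that CUMS makes differed between mice given krill oil and mice given water. Its estimate was above 0 for all 10 genes, with a median of 1.54 on the log2 scale against -0.02 over all genes tested. Nr4a1 was called (1.62 ± 0.69 SE, limma, adjusted p = 0.665), which was 1 of 10 genes against 4.74% of all. Its means were 33.3 ± 7.73 FPKM in C_W, 18.7 ± 11.3 in MS_W, 23.3 ± 10.2 in C_O and 33.4 ± 3.27 in MS_O (SD, n = 3 each). Npas4 (1.99 ± 0.96 SE), Junb (1.46 ± 0.71) and Arc (2.12 ± 1.07) came next, each with the same adjusted p of 0.665. Each of C_O72 and MS_W95 belongs to one of the groups whose low mean raises this estimate. Without both, no gene was called, where 4.13% of all were, the median was 0.52, Nr4a1 was at 0.59 ± 0.26 SE (limma, adjusted p = 0.685) and Egr2 at -0.21 ± 0.21. Nr4a1 also lost its call without any 1 of C_W1, C_W64, C_O72, MS_W95, MS_O13, MS_O46 or MS_O78, with estimates between 1.00 and 1.66. Leaving out a single library also brought in Npas4, Arc, Junb or Fosb, up to 4 calls without MS_W31. Of all 21393 genes tested, 1274 were called in the interaction without MS_W31. By an adjusted p no gene of the 10 was called with limma, edgeR or DESeq2, and 0% of all genes were by limma, where 1546 had an unadjusted p under 0.05. Of the 21393 tested 0 were by edgeR and 145 by DESeq2. These comparisons share groups, so their values are not independent of each other.

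Cortical marker levels moved with the groups as well. The summed FPKM of the 11 cortical excitatory neuron markers ranged from 1358 to 1560 in C_W, from 170 to 1552 in C_O, from 146 to 605 in MS_W and from 500 to 1358 in MS_O. All 11 had a log2FC below 0 between C_W and MS_W, and 6 of them were called lower there, where 4.59% of all genes were called in either direction, with Lamp5 (log2FC -1.38 ± 0.31 SE) and Rorb (-0.80 ± 0.27) of upper cortical layers having the smallest p (limma, adjusted p = 0.223 and 0.360). In the 10 libraries without C_O72 and MS_W95 all 11 were again below 0 and 7 were called lower, where 5.81% of all genes were called. With the mean log2 level of these markers as a covariate, Arc in C_W vs MS_W was at -0.27 ± 0.54 SE (adjusted p = 0.913 by limma) and Egr1 0.32 ± 0.41 (adjusted p = 0.837), and the median over the 10 immediate early genes was -0.05. In the 10 libraries with this covariate, a setting added after the data were seen, Arc was at -0.56 ± 0.74 SE (limma, adjusted p = 0.878). Fosb was called there at -1.01 ± 0.41 SE (limma, adjusted p = 0.522), as were 346 of the 21393 genes tested. With this covariate the fitted difference took the place of the log2 ratio of group means. That ratio was -0.166 for Fosb in these 10 libraries, short of a call. The striatal markers stood the other way, summed at 96.4 to 186 FPKM in C_W and 719 and 1031 FPKM in MS_W31 and MS_W75, and MS_W95 was at 153 FPKM. Penk and Tac1, peptide genes of striatal projection neurons, were called higher in MS_W (log2FC 2.13 ± 0.55 and 1.80 ± 0.61 SE, limma, adjusted p = 0.278 and 0.357). All 10 striatal markers were called higher in MS_W without C_O72 and MS_W95 (5.81% of all genes), against 5 of 10 in the 12 libraries (4.59% of all genes). Hypothalamic markers stood like the striatal ones, summed at 6.81 to 16.9 FPKM in C_W, 5.95 to 34.0 in C_O, 42.8 to 148 in MS_W and 17.4 to 77.1 in MS_O. Of 10 tested, 6 were called higher in MS_W than in C_W (4.59% of all genes), and 7 were without the 2 libraries (5.81% of all genes), among them the peptide gene Cartpt (log2FC 2.38 ± 0.44 SE, limma, adjusted p = 0.147, and 2.14 ± 0.52, adjusted p = 0.110). Olfactory bulb markers were summed at 258 and 270 FPKM in MS_O46 and MS_O78, the 2 libraries highest in Fosb. MS_O13 was at 44.9 FPKM, and no other library exceeded 99.9 FPKM. Of these markers, Tbx21 was called higher in MS_O than in MS_W (log2FC 1.57 ± 0.65 SE, limma, adjusted p = 0.810), but not without C_O72 and MS_W95 (1.09 ± 0.71). Eomes and Doc2g were called higher between C_O and MS_O (2.58 ± 0.72 and 3.40 ± 0.96 SE, limma, adjusted p = 0.479), where 3.57% of all genes were called. They had the smallest p of the olfactory bulb markers called higher there. Both stayed called without C_O72 and MS_W95 (2.82 ± 0.88 and 3.36 ± 1.08 SE), against 4.28% of all genes. The part of the striatal, hypothalamic and olfactory bulb markers in the immediate early gene differences was not tested. Marker differences and CUMS cannot be told apart in these groups. The fit with cortical markers cannot separate them either, because the marker sums of C_W and MS_W did not overlap.

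**Figure D4:**
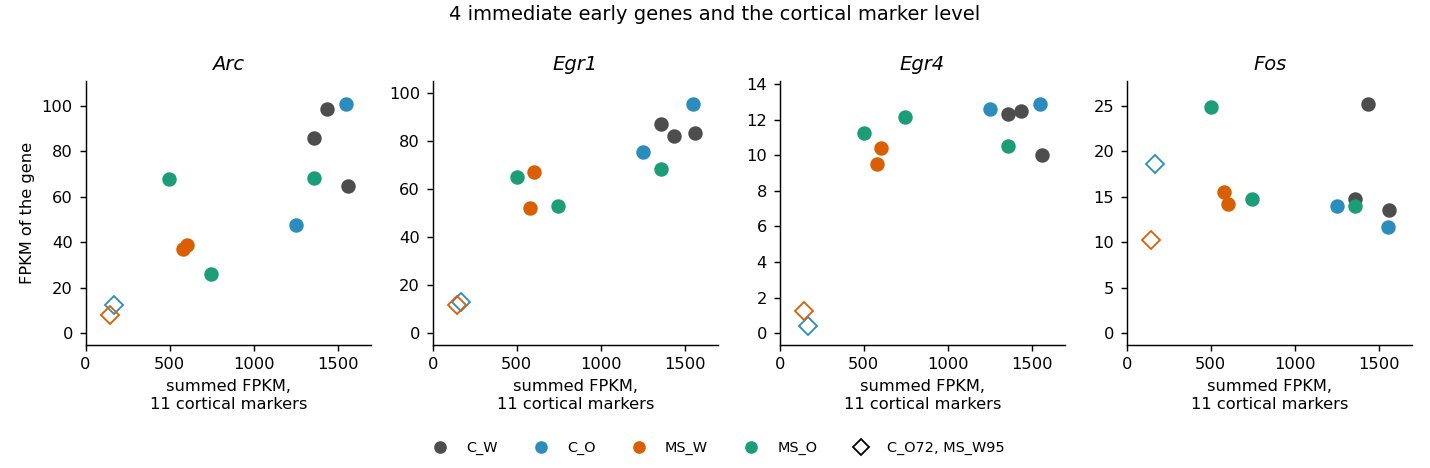
FPKM of Arc, Egr1, Egr4 and Fos in each library against the summed FPKM of 11 cortical excitatory neuron markers in the same library, coloured by group, with open diamonds for C_O72 and MS_W95. Both diamonds lie at the lower left for Arc, Egr1 and Egr4, while Fos at 18.6 FPKM in C_O72 lies above most libraries.

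Other genes of the same response were described by counts. Of all genes tested, 4.59% were called in C_W vs MS_W, 3.57% in C_O vs MS_O, 1.76% in C_W vs C_O and 2.81% in MS_W vs MS_O. Of 27 further immediate early genes tested none was called between C_W and MS_W, between C_O and MS_O or between MS_W and MS_O, and 1 was between C_W and C_O: Nr4a3, a relative of Nr4a1, was lower in C_O (log2FC -0.98 ± 0.36 SE, limma, adjusted p = 0.908). Their median log2FC was -0.13 in C_W vs MS_W and 0.35 in MS_W vs MS_O, with 18 of 27 below 0 and 22 of 27 above 0. Of 15 effector genes that follow immediate early genes, 1 was called higher and 1 lower between C_W and MS_W, the granin Scg2 (log2FC 1.03 ± 0.29 SE) and the bHLH repressor Bhlhe40 (-0.99 ± 0.28), with the same adjusted p of 0.303. The activin subunit Inhba was called higher between C_O and MS_O (log2FC 0.58 ± 0.22 SE, adjusted p = 0.507). None of the 15 was called between MS_W and MS_O, and none of the 19 upstream genes in any of the 7 comparisons, where 0.921% to 4.74% of all genes were. When C_O72 and MS_W95 were left out the upstream genes again gave no call, Nr4a3 (log2FC -1.10 ± 0.44 SE) and Scg2 (1.17 ± 0.29) were still called, and Bhlhe40 (-0.96 ± 0.16) and Inhba (0.43 ± 0.19) were not. There 1 of the 27 further immediate early genes was called higher between MS_W and MS_O, against 3.36% of all genes.

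Genes induced by glucocorticoids, the hormones of the stress axis, gave 2 calls of 10 between C_W and MS_W, against 4.59% of all genes, both lower in MS_W: the zinc finger factor Zbtb16 (log2FC -1.62 ± 0.33 SE, limma, adjusted p = 0.185) and the lipid droplet protein Plin4 (-1.25 ± 0.42, adjusted p = 0.358). Between C_O and MS_O Plin4 was lower (-1.30 ± 0.42 SE, adjusted p = 0.479) and Cdkn1a, a cell cycle inhibitor, higher (0.96 ± 0.38, adjusted p = 0.517). Of 8 heat shock genes only Hspb1, a small heat shock protein, was called, lower between C_O and MS_O (-0.94 ± 0.38 SE, adjusted p = 0.532), higher between C_W and C_O (0.92 ± 0.38, adjusted p = 0.908) and below 0 in the interaction (-1.36 ± 0.54, adjusted p = 0.665). All of these had adjusted p above 0.05. Of all genes 3.57% were called between C_O and MS_O, 1.76% between C_W and C_O and 4.74% in the interaction. When both libraries were left out the 4 calls of Zbtb16 (-1.51 ± 0.40 SE), Plin4 (-1.11 ± 0.31 and -0.77 ± 0.31) and Cdkn1a (1.08 ± 0.42) stayed, and Hspb1 lost all 3, at -0.47 ± 0.28, 0.45 ± 0.28 and -0.75 ± 0.39.

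The mean profile of the 10 immediate early genes over the 12 libraries was followed most closely by Nr4a1 (Pearson r = 0.985) and Junb (0.976) among themselves and least by Fos (0.540) and Dusp1 (0.103). Each of the 10 is itself part of this mean, which raises its r. The r of members, here and below, are therefore not comparable with those of other genes. Of 13611 other genes with a mean of at least 1 FPKM, the 8 most like it were Slc6a7, a brain proline transporter, Cdh10, Grk6, the serotonin receptor gene Htr5a, Gm37711, Gm35040, Gm34583 and Gucy2g, with r between 0.948 and 0.958. Over the 10 libraries without C_O72 and MS_W95 a different 8 came out, Cdk14, Sun1, Wdr90, Herc1, Rap2a, Tmem42, Rnf130 and the opioid receptor gene Oprd1, with r between 0.868 and 0.946. There the best-following members were Fos (0.769), Nr4a1 (0.762) and Junb (0.738), and Egr2 followed least (0.215). These likenesses are descriptions over libraries that share 2 outlying brains in the first case and few samples in the second.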

How the data were processed

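The authors extracted total RNA from 3 brains per group, selected poly(A) RNA, made dUTP-stranded libraries and sequenced them on an Illumina sequencer. Per the labels and the study's methods, reads were trimmed (cutadapt 1.9), aligned to mm10 (HISAT2 2.0.4) and assembled and quantified with StringTie 1.3.4d and Ballgown. Whether counting used strand, and how multi-mapped reads were treated, was not given in the sources used here. The deposited table holds FPKM, made by the authors per transcript length and library depth, and estimated counts, which the authors' pipeline derived from coverage (they equal FPKM times length times a library factor, with a median deviation of 0.0479% over 1732 genes), so they are not counts of single reads. In the gene lists used here, the lowest deposited value was 0.0001 FPKM, always with an estimated count of 0.

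Log2(FPKM + 1) values of the 21393 genes with a mean of at least 0.1 FPKM were fitted in 1 model of 4 groups with limma 3.58.1 (eBayes with trend, R 4.3.3), and p-values were adjusted by Benjamini-Hochberg over all of them. A pseudocount of 1 understates changes of low genes. Genes were called by an unadjusted p under 0.05 with an absolute log2 ratio of group mean FPKM above 1, and separately by an adjusted p under 0.05. In fits with the cortical covariate, edgeR or DESeq2 the fitted log2FC took the place of the ratio of group means. The model was also run on simulated data, in which the residuals of each gene were shuffled over libraries on their own. Libraries in which many genes shift together, such as C_O72 and MS_W95, were therefore not simulated. Alternatives were pseudocounts of 0.1 and 0.01, other filters, quantile and median scaling, array weights, robust eBayes, DESeq2 1.42.0 and the quasi-likelihood test of edgeR 4.0.16 (both run with rounded estimated counts), a cortical marker covariate, and fewer libraries. Named genes were all 10 members, at most 2 higher and 2 lower called genes per list and comparison, the markers that moved with the members, and the 8 most like profiles. Tbr1, Neurod2, Cux2, Nrgn, Gabra6, Pcp2, Egr3, Zfp36, Ccn1, Mrtfb, Srf, Rps6ka5, Camk4, Mapk3 and Elk4 were picked with their values in view, as was Lamp5 in C_O72. The genes, lists and the 10-library setting were chosen with earlier results of these data known. The labels name separate mice by number but give no batch or litter. With 3 against 3 mice an exact permutation test could not go below 0.10. The limma p-values set a difference against the spread within groups, pooled over the 4 groups and drawn by eBayes towards a trend over all genes. In the fits of 12 libraries this spread includes C_O72 and MS_W95.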

Additional observations from a re-analysis of the deposited data

How the results depend on the processing

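No paired analysis was possible because the groups share no replicate number in the labels. No immediate early gene passed an adjusted p of 0.05 in any of the 7 comparisons under any of the 26 settings, where the smallest was 0.0778. Of all 21393 genes tested, 2127 passed for CUMS over both diets with array weights, the most of any setting. The number of immediate early genes called was 0 in place of 1 for C_W vs MS_W with edgeR and with the cortical covariate. With the covariate in the 10 libraries the 1 call was Fosb (-1.01, by the fitted difference) in place of Arc (-0.558). Of all 21393 genes, 983 were called in the main fit, 976 with edgeR, 250 with the covariate and 346 with it in the 10 libraries. For MS_W vs MS_O the number of immediate early genes called was 0 in place of 1 with pseudocounts of 0.1 and 0.01, no filter, only the libraries compared, edgeR, DESeq2, the cortical covariate, and the 10 libraries with or without it. Of all genes, 602 of 21393 were called in the main fit and 1205 of 35074 without a filter. In the others it was from 87 (cortical covariate) to 718 (10 libraries) of 21393. For the interaction the number of immediate early genes called was 0 in place of 1 with edgeR, DESeq2, the cortical covariate and the 10 libraries with or without it. With array weights the 1 call was Fosb (0.868) in place of Nr4a1 (0.822). Of all 21393 genes, 1013 were called in the main fit and from 235 (cortical covariate) to 1349 (DESeq2) in these settings. The median log2FC of the genes in C_W vs MS_W moved from -0.87 to -0.0546 (cortical covariate) and -0.206 (10 libraries), and in MS_W vs MS_O from 0.88 to 0.247 (10 libraries). That of the interaction moved from 1.54 to 0.637 (array weights), 0.626 (cortical covariate), 0.521 (10 libraries) and 0.511 (10 libraries with the covariate).

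Signs changed as follows. With the cortical covariate in C_W vs MS_W, Junb was at 0.0290, Egr1 at 0.324, Egr2 at 0.496, Egr4 at 0.847 and Npas4 at 0.161, Egr4 in C_W vs C_O at 0.00261, Arc for CUMS over both diets at 0.0527 and Egr2 in the interaction at -0.0118. In the 10 libraries Egr2 was at 0.0945 in C_W vs MS_W, -0.116 in MS_W vs MS_O and -0.209 in the interaction, Egr1 at -0.454 in C_O vs MS_O and Egr4 at 0.129 in C_W vs C_O. With the covariate in the 10 libraries, a setting added after the data were seen, Egr2 was at -0.0578 in MS_W vs MS_O and -0.159 in the interaction, Egr1 at -0.303 in C_O vs MS_O and Egr4 at 0.131 in C_W vs C_O. Egr1 in C_O vs MS_O was also below 0 with array weights (-0.365), edgeR (-0.0612) and DESeq2 (-0.0686). The cause was not tested.

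Leaving out each of the 12 libraries in turn gave 0 to 2 calls for C_W vs MS_W, 0 to 3 for MS_W vs MS_O and 0 to 4 for the interaction. For C_O vs MS_O, C_W vs C_O and CUMS over both diets it gave 0 to 1. Of all 21393 genes tested, 746 to 1205 were called for C_W vs MS_W, 463 to 936 for MS_W vs MS_O and 728 to 1504 for the interaction. For C_O vs MS_O 474 to 1251 were called, for C_W vs C_O 251 to 888 and for CUMS over both diets 416 to 948. The median log2FC ranged from -1.18 to -0.206 for C_W vs MS_W, from 0.146 to 0.772 for C_O vs MS_O, from -0.825 to -0.138 for C_W vs C_O, from 0.247 to 1.23 for MS_W vs MS_O, from -0.325 to 0.150 for CUMS over both diets, from -0.205 to 0.409 for krill oil over both stress states and from 0.864 to 1.88 for the interaction. Egr2 ranged from -0.912 to 0.0945 in C_W vs MS_W and from -0.116 to 0.890 in MS_W vs MS_O, each with the changed sign without MS_W95. Egr1 ranged from -0.454 to 0.935 in C_O vs MS_O and Egr4 from -1.52 to 0.129 in C_W vs C_O, each with the changed sign without C_O72. Values of Egr2 in C_O72 and MS_W95 rest on 25 and 4 estimated counts.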
